A study of Mus musculus with 8 samples.

Results

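Matrix and stellate cell genes were followed in the livers of mice that carry the E167K variant of Tm6sf2. The list names 45 genes: structural proteins of the extracellular matrix, the enzymes that crosslink and cleave them, the signals that drive their synthesis, and markers of the hepatic stellate cell. A member was measured by the probe set that the platform annotation assigns to that gene symbol alone, and where a gene had several, by the one with the highest mean over all 8 arrays. That gave a value for 42 of the 45 members, out of 22180 genes measured this way. Fbn1, Spp1 and Loxl2 had no such probe set and were not analysed here. Ctgf is listed under its newer symbol, Ccn2. Another 2 members, the collagenase Mmp13 and the protease inhibitor Timp1, stayed below the dim limit (defined below) on most arrays, which left 40 tested members among 13449 tested genes.

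The study asked how the variant acts on glucose and lipid metabolism. It compared whole-liver RNA of male C57BL/6J mice on whole-transcript arrays: 4 arrays of wild type animals and 4 of animals with the variant knocked in (TM6SF2 E167K knock in, in the labels), the wild type being littermates. The sources used here give no ages. The notes on diet differ, with a high-fat diet for 20 weeks in one and a sucrose diet free of fat, or chow, for 14 weeks in another, so no result is tied to a diet. The labels do not state that each array is a separate animal, and p-values therefore describe the spread between these samples.

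In the healthy liver the stellate cell lies between sinusoidal endothelium and hepatocytes and stores retinyl esters. When activated by transforming growth factor beta and platelet-derived growth factor, it turns into a contractile myofibroblast that deposits fibrillar collagen and crosslinks it. Portal fibroblasts and vascular smooth muscle make many of the same proteins, and hepatocytes themselves secrete plasma fibronectin. In whole liver, fewer cells of a type and less RNA per cell cannot be told apart.

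Values are log2 expression, and a change is the log2 knock-in minus wild type difference with its standard error (SE) from limma, Benjamini-Hochberg adjusted over all tested genes. Brightness depends on the probes, so values are compared between arrays for a gene and not between genes. Array medians over all probe sets were 3.73 to 3.80. The dim limit, the 40th percentile of each array over probe sets with 1 gene symbol, was 3.46 to 3.50. To check the tissue, 11 of 11 hepatocyte markers were tested, and their list mean was 11.97 to 12.09 on wild type arrays against 12.07 to 12.11 on knock-in arrays. Of 15 markers of the quiescent stellate cell, 13 were tested, Lrat, Hgf, Colec11, Cygb and Rgs5 among them, while Gfap lay below the limit on most arrays.

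No member passed the threshold of adjusted p under 0.05 in limma, where 9 of all tested genes (0.0669%) did, 0.0223% higher and 0.0446% lower. The lowest adjusted p among members was 0.266. At an unadjusted p under 0.05, 4 of the 40 members (10.0%) were higher in the knock-in and 0 were lower, beside 11.3% of all tested genes in either direction, 6.01% higher and 5.29% lower. These 4 were Col6a1, Col5a2, Timp3 and Col5a1. The share in either direction is near the background. In 3 of the 40 members (7.50%) the groups did not overlap, all with the knock-in higher, beside 7.16% of all tested genes (3.96% higher and 3.2% lower). The median change over members was 0.05, with 24 higher and 16 lower, beside a median of 0.0046 and 51.1% higher over all genes tested. Changes ran from -0.24 for Timp2 to 0.71 for Col6a1, and 31 of 40 lay within 0.3 of 0. Without wild type replicate 2 the count at unadjusted p under 0.05 was 8 (20.0%, against 10.4% of all tested genes). Of these, 7 were higher and 1, Ecm1, was lower. Without each of the other arrays the count was 3 to 5 (7.50% to 12.5%, against 8.95% to 11.5% of all tested genes).

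**Figure D1:**
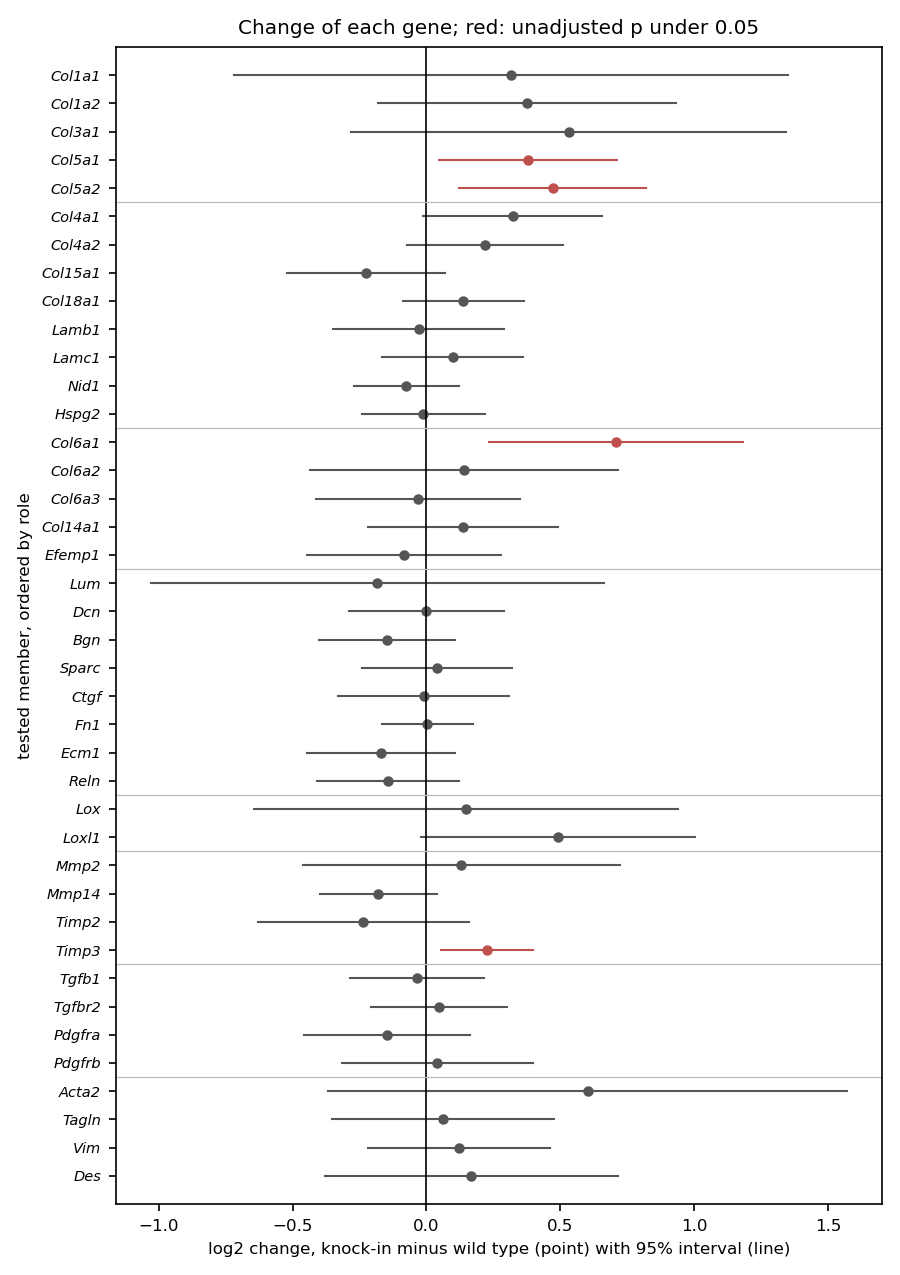
Log2 change (knock-in minus wild type, 4 arrays each) of the 40 tested members, ordered by role from fibrillar collagens at the top to contractile and filament proteins at the bottom; points are limma estimates, lines their 95% intervals, and red marks an unadjusted p under 0.05. Of the 40 intervals, 4 leave out 0, and all 4 lie on the higher side.

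Fibrillar collagens form the tensile fibres of scar tissue. All 5 members were tested and all 5 were higher in the knock-in, beside 51.1% of all tested genes, with a median change of 0.38. Of the 5, 2 had an unadjusted p under 0.05, beside 6.01% of all tested genes in that direction. Col1a1 and Col1a2 encode the chains of type I collagen and Col3a1 that of type III, the main fibril collagens of fibrotic liver. Col5a1 and Col5a2 encode chains of type V collagen, which starts fibrils and sets their diameter.

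Col5a2 read 3.29, 3.85, 3.80 and 3.53 in wild type replicates 1 to 4 and 3.94, 4.02, 3.99 and 4.40 in knock-in replicates 1 to 4. The groups did not overlap, but wild type replicate 1 lay below the dim limit and the others were not far above it. The change was 0.47 (SE 0.15, 1.39-fold, limma adjusted p = 0.311), and it was 0.36 to 0.55 with each array left out in turn.

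For Col5a1 the wild type arrays gave 4.87, 5.07, 4.66 and 4.73 and the knock-in arrays 5.43, 5.20, 4.85 and 5.38. Knock-in replicate 3 lay among the wild type arrays. The change was 0.38 (SE 0.15, 1.30-fold, limma adjusted p = 0.371). A dimmer probe set for the same gene read 3.92 ± 0.22 in wild type and 3.70 ± 0.18 in knock-in (mean ± SD, n = 4), the opposite direction.

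For the type I and type III chains, wild type replicate 2 was among the 3 highest arrays. Col1a1 read 5.34, 6.52, 4.67 and 4.94 in wild type and 5.09, 4.99, 6.22 and 6.42 in knock-in replicates 1 to 4. Wild type replicate 2 and knock-in replicates 3 and 4 formed a high set at 6.22 to 6.52, and the other 5 arrays lay at 4.67 to 5.34. The group difference was 0.32 (SE 0.46, interval -0.72 to 1.35, limma adjusted p = 0.857). Its standard error was above that of 99.4% of tested genes. Leaving out wild type replicate 2 gave 0.70, and leaving out knock-in replicate 4 gave 0.07.

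Col3a1 read 5.86, 6.47, 4.87 and 5.44 in wild type and 5.84, 5.65, 6.49 and 6.79 in knock-in. The same 3 arrays were highest, at 6.47 to 6.79, and wild type replicate 3 was lowest. The change was 0.53 (SE 0.36, limma adjusted p = 0.628), with 0.27 on leaving out wild type replicate 3 and 0.80 on leaving out replicate 2. Col1a2 read 5.30, 6.15, 4.89 and 5.33 in wild type and 5.58, 5.63, 5.90 and 6.07 in knock-in, with the same 3 arrays highest. Its change was 0.37 (SE 0.25, limma adjusted p = 0.617), with 0.20 and 0.62 when the same arrays were left out. All 4 knock-in arrays lay above wild type replicates 1, 3 and 4, and wild type replicate 2 was the highest of all. A second probe set of Col1a2, below the dim limit, read 3.10 ± 0.18 and 2.85 ± 0.13.

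**Figure D2:**
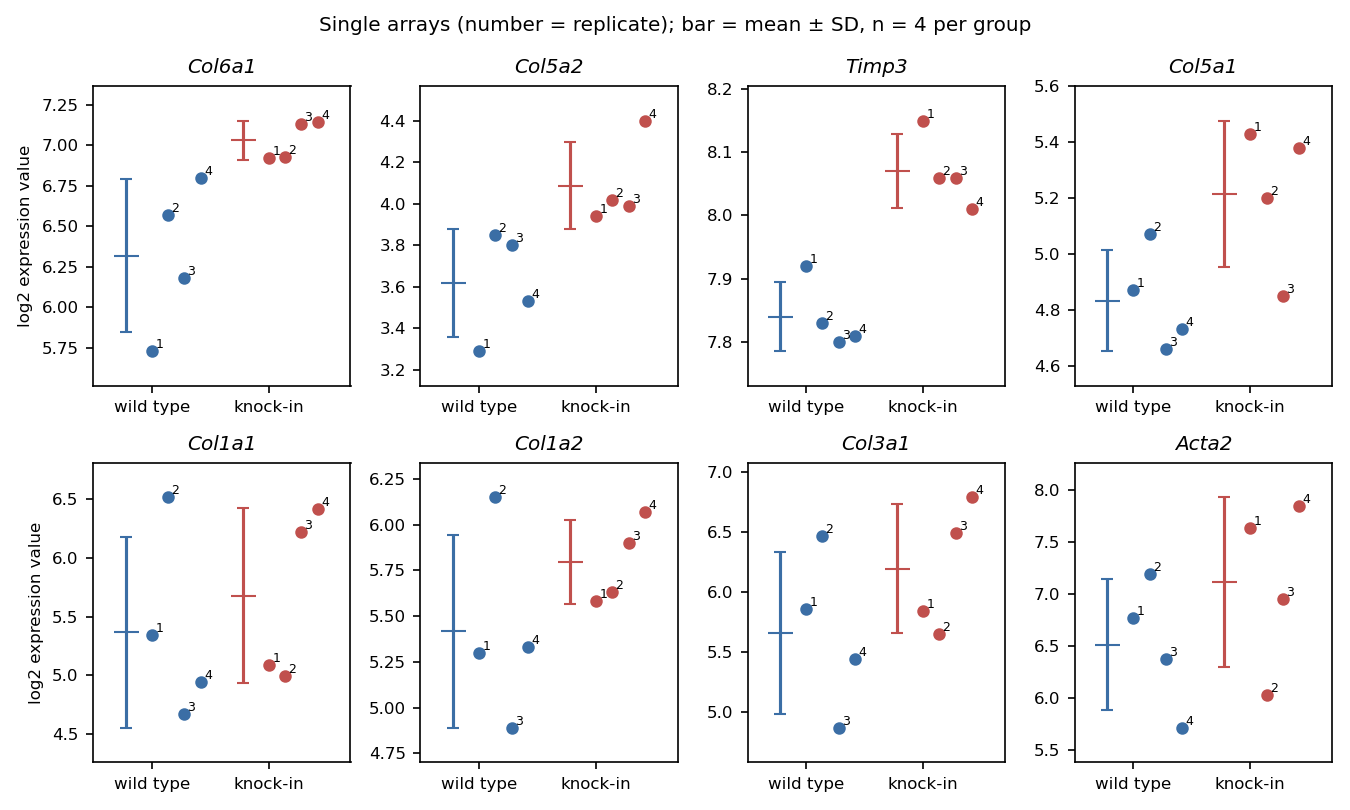
Log2 expression value of 8 members on each array (dots, numbered by replicate; blue wild type, red knock-in), with the mean ± SD of the 4 arrays of a group beside them. For Col6a1, Col5a2 and Timp3 the groups lie apart, whereas for Col1a1, Col1a2 and Col3a1 wild type replicate 2 sits with knock-in replicates 3 and 4.

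Start-site sequence is shown for the fibrillar collagens that RefSeq's promoter table (build GRCm38.p6) holds, so that chains of the same kind of fibre can be set side by side. It runs from 250 bases before to 50 after the gene start, 5′ to 3′ on the gene's strand, for Col1a2 at chr6:4505368-4505667 on the plus strand, Col3a1 at chr1:45311288-45311587 on the plus strand and Col5a1 at chr2:27886175-27886474 on the plus strand. Capitals, here and for the sequences that follow, mark exact matches on either strand to the TATA box (TATAAA), the NF-Y motif (CCAAT), the Sp1 motif (GGGCGG), the AP-1 motif (TGANTCA), the SMAD motif (CAGAC), the TEAD motif (GGAATG) or the CArG box of serum response factor, and 0 of these matches overlapped another.
Col1a2: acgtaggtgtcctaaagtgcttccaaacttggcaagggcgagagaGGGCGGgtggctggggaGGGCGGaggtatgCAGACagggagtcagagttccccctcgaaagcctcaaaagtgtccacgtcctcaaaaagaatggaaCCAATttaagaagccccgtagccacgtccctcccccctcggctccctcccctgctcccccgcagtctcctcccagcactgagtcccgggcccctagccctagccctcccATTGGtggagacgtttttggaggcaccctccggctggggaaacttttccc
Col3a1: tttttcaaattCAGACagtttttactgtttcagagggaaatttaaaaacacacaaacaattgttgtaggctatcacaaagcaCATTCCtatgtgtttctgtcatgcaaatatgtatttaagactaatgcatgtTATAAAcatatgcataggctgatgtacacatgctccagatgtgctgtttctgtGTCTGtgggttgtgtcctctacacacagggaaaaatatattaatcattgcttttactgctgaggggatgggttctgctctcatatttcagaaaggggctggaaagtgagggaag
Col5a1: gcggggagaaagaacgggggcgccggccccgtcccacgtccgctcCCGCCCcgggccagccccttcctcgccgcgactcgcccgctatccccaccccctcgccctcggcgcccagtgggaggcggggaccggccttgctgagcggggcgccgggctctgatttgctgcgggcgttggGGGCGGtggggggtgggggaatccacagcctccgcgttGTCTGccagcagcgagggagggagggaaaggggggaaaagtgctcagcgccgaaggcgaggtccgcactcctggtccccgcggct
Col1a2 held CCAAT on both strands, 2 GGGCGG and 1 CAGAC. The Col3a1 window held TATAAA, 2 CAGAC and 1 GGAATG, and Col5a1 held 2 GGGCGG and 1 CAGAC. Their GC contents were 61.0%, 37.7% and 75.0%, and CAGAC was the only motif searched that Col1a2 and Col3a1 both held. CAGAC was present in 49.6% of all 32851 windows in the table. A match describes letters and not a bound site.

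Of the 45 members, 31 had at least 1 window and 34 windows were searched. GGGCGG was in 21 of them (61.8%, against 35.7% of all windows), CCAAT in 12 (35.3% against 37.4%), CAGAC in 18 (52.9%) and TATAAA in 5 (14.7% against 13.6%). TGANTCA was in 4 (11.8% against 7.81%) and GGAATG in 6 (17.6% against 14.7%). The CArG box was in 0 of 34 and in 1.63% of all windows. The median GC content of all windows was 52.7%, and the 7 windows printed here ran from 37.7% to 75.0%. These shares were not matched for GC content, on which matches to GGGCGG depend.

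Basement membrane genes encode the thin sheet under vessels and ducts, of which little surrounds a healthy sinusoid. All 8 were tested, 4 higher and 4 lower, with a median change of 0.04 and 0 at an unadjusted p under 0.05. Col4a1 and Col4a2 encode the chains of the main type IV collagen. Col4a1 read 5.50, 5.74, 5.73 and 5.84 in wild type and 6.01, 5.99, 5.69 and 6.39 in knock-in, where 3 of 4 knock-in arrays lay above all wild type arrays. Its difference was 0.32 (SE 0.15, limma adjusted p = 0.455) and 0.20 without knock-in replicate 4.

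Its partner Col4a2 read 5.51, 5.77, 5.60 and 5.57 in wild type and 5.60, 6.13, 5.67 and 5.92 in knock-in. Knock-in replicate 2 was the highest array for Col4a2 and knock-in replicate 4 for Col4a1. The Col4a2 change was 0.22 (SE 0.13, limma adjusted p = 0.574) and 0.12 without knock-in replicate 2. Both genes lie head to head and their start regions overlap, which is why both are shown: Col4a1 at chr8:11312777-11313076 on the minus strand and Col4a2 at chr8:11312555-11312854 on the plus strand, in GRCm38.p6 from RefSeq.
Col4a1: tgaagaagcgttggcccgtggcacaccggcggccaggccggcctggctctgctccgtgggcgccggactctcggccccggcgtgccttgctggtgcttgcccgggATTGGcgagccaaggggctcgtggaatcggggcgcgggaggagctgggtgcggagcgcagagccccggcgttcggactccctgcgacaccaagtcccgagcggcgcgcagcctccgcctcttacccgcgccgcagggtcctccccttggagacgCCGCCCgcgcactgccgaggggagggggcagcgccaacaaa
Col4a2: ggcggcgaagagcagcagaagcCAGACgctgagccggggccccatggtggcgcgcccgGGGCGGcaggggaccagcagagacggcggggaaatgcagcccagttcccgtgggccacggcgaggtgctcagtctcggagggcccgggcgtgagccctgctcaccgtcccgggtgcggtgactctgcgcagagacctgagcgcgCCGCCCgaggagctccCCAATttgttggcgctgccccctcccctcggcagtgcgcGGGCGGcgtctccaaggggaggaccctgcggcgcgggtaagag
The windows run on opposite strands and share 78 bases. GGGCGG and CCAAT were found in both, in 3 and 1 places for Col4a2 and in 1 place each for Col4a1. The GGGCGG of Col4a1 lies in the shared bases and is the same site as 1 of those of Col4a2.

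Type XV and type XVIII collagens link the basement membrane to the surrounding stroma. Col15a1 read 4.53, 4.59, 4.95 and 4.78 in wild type and 4.63, 4.44, 4.65 and 4.23 in knock-in (change -0.23, SE 0.13, limma adjusted p = 0.560). The groups overlapped, and the change was -0.14 without knock-in replicate 4. Col18a1, which hepatocytes also express and which carries endostatin at its end, read 9.23, 9.14, 9.16 and 8.93 in wild type and 9.30, 9.36, 9.08 and 9.28 in knock-in (change 0.14, SE 0.10, limma adjusted p = 0.658). The laminin chains Lamb1 and Lamc1, the linker nidogen (Nid1) and perlecan (Hspg2) were at -0.08 to 0.10, with intervals from -0.35 at the lowest to 0.36 at the highest.

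Of the microfibrillar and fibril-associated genes, 5 of 6 were tested, 3 higher and 2 lower, with a median of 0.14. Col6a1, a chain of the beaded type VI collagen filament, had the smallest p of all members. It read 5.73, 6.57, 6.18 and 6.80 in wild type replicates 1 to 4 and 6.92, 6.93, 7.13 and 7.14 in knock-in replicates 1 to 4. The groups did not overlap, and the wild type spread (SD 0.47) was wider than that of the knock-in (SD 0.12). With a standard error of 0.21, the difference was 0.71 (1.63-fold, 95% interval 0.23 to 1.18, limma adjusted p = 0.266). Leaving out wild type replicate 1 gave 0.51, leaving out wild type replicate 4 gave 0.87, and the direction held without each array. A second, dimmer probe set of Col6a1 read 3.36 ± 0.26 and 3.37 ± 0.29, below or near the dim limit.

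The other chains of the same filament were not higher to the same extent. Col6a2 was at 0.14 (SE 0.25) and Col6a3 at -0.03 (SE 0.17), and both turned direction on leaving out at least 1 array. The difference between Col6a1 and its partners was not tested. Efemp1, an elastic-fibre fibulin, read 8.15, 8.71, 7.88 and 8.30 in wild type and 8.10, 8.14, 8.18 and 8.27 in knock-in, so all knock-in arrays lay inside the wild type range (change -0.08, SE 0.16, limma adjusted p = 0.900). Without wild type replicate 2 its change was 0.07. Col14a1, which coats fibrils, was at 0.14 (SE 0.16). The start region of Col6a1, the member with the smallest p, lies at chr10:76725995-76726294 on the minus strand (GRCm38.p6, RefSeq).
Col6a1: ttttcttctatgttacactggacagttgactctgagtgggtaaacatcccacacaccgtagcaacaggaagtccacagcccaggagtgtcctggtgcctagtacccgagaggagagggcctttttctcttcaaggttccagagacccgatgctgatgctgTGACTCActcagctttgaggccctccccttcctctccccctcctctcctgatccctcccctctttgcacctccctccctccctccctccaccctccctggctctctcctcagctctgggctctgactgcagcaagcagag
It held a single match among the motifs searched, TGANTCA.

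Among proteoglycans and adhesive glycoproteins, 8 of 9 were tested, 2 higher and 6 lower, with a median of -0.08 and 0 at an unadjusted p under 0.05. Fn1, fibronectin, read 12.29, 12.22, 12.35 and 12.26 in wild type and 12.27, 12.23, 12.28 and 12.36 in knock-in. Knock-in minus wild type was 0.0033 (SE 0.08, limma adjusted p = 0.993, interval -0.17 to 0.17; at -0.0051 and -0.0012 after centring or a further quantile normalization). Dcn, decorin, a small leucine-rich proteoglycan that binds collagen fibrils and transforming growth factor beta, was at -0.0016 (SE 0.13), its wild type arrays at 11.12 to 11.63 and its knock-in arrays at 11.24 to 11.60. Its neighbour in the family, Lum, was far more variable.

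Lum read 6.32, 6.78, 6.12 and 6.68 in wild type and 5.31, 5.90, 6.82 and 7.15 in knock-in, where replicates 1 and 2 were below, and 3 and 4 above, all wild type arrays. Its change was -0.18 (SE 0.37, limma adjusted p = 0.909), -0.47 without knock-in replicate 4 and 0.15 without knock-in replicate 1. Bgn, biglycan, was at -0.15 (SE 0.11), and its second probe set read 7.33 ± 0.18 in wild type and 7.43 ± 0.31 in knock-in, the opposite direction. Reln and Ecm1, secreted proteins that stellate cells make in liver, were at -0.14 (SE 0.12) and -0.17 (SE 0.12). Sparc, a matricellular protein, was at 0.04 (SE 0.12), and Ctgf, a target of transforming growth factor beta and YAP, at -0.01 (SE 0.14). A second probe set of Ctgf read 2.92 ± 0.20 in wild type and 3.27 ± 0.31 in knock-in, with both means below the dim limit.

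Crosslinking enzymes oxidise lysines so that collagen fibres become stiff and insoluble. Loxl1 read 4.86, 5.17, 4.26 and 4.19 in wild type and 5.11, 4.95, 4.95 and 5.44 in knock-in. Wild type replicates 3 and 4 were low and replicates 1 and 2 within or near the knock-in range. The change was 0.49 (SE 0.23, limma adjusted p = 0.453), or 0.35 when wild type replicate 4 was left out and 0.67 when replicate 2 was. Lox passed the filter mainly through the knock-in, with 3 of 4 knock-in and 1 of 4 wild type arrays above that limit, and its change was 0.15 (SE 0.35). Its lowest array, at 2.26, was knock-in replicate 2.

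Proteases and their inhibitors set how long deposited matrix lasts. Of 6 members 4 were tested, 2 higher and 2 lower. Timp3, the matrix-bound inhibitor of metalloproteinases, read 7.92, 7.83, 7.80 and 7.81 in wild type and 8.15, 8.06, 8.06 and 8.01 in knock-in. The groups did not overlap and both were tight (SD 0.05 and 0.06), so that the standard error was below that of all but 1.37% of tested genes. The difference of 0.23 (SE 0.08, 1.17-fold, limma adjusted p = 0.320) had an interval of 0.06 to 0.40. It was 0.20 to 0.25 with each array left out, the narrowest such range among the 4 members with an unadjusted p under 0.05. The Timp3 start region lies at chr10:86300162-86300461 on the plus strand (GRCm38.p6, RefSeq) and is shown beside that of Col6a1 as the second of the members whose groups lie apart.
Timp3: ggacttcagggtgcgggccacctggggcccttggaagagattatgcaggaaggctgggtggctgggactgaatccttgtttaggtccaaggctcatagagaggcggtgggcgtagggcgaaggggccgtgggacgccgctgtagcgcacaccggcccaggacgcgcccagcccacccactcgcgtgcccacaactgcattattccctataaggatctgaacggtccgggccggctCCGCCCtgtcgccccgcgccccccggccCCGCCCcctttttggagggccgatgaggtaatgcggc
It held GGGCGG in 2 places, on the opposite strand, and no other motif searched.

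Mmp14, the membrane-bound collagenase that activates Mmp2, read 9.30, 9.29, 9.56 and 9.33 in wild type and 9.35, 9.16, 9.09 and 9.17 in knock-in (change -0.18, SE 0.10, limma adjusted p = 0.530). The groups overlapped through knock-in replicate 1, without which the change was -0.23. Mmp2, a gelatinase made by stellate cells, read 6.06, 6.68, 5.88 and 5.84 in wild type and 5.89, 5.79, 6.59 and 6.72 in knock-in. Its 3 highest arrays were those of the type I collagen chains, and its change of 0.13 (SE 0.26) turned to -0.03 without knock-in replicate 4. Timp2, another metalloproteinase inhibitor, was at -0.24 (SE 0.17), and at -0.09 without knock-in replicate 2. The wild type arrays read 2.89 to 3.36 for Mmp13 and 3.05 to 3.78 for Timp1, the knock-in arrays reached 3.76 and 4.04, with 1 and 3 of the 8 arrays above the dim limit, so neither has a measured change.

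The growth factor and receptor genes were all tested, 2 higher and 2 lower, with a median of 0.0027. Tgfb1, the ligand that activates stellate cells, was at -0.04 (SE 0.11), and its receptor Tgfbr2 at 0.05 (SE 0.11), each with a direction that turned on leaving out at least 1 array. Pdgfra, a platelet-derived growth factor receptor and stellate cell marker, read 8.10, 8.03, 7.56 and 7.78 in wild type and 7.67, 7.54, 7.77 and 7.90 in knock-in (change -0.15, SE 0.14, limma adjusted p = 0.742). It was at -0.07 when wild type replicate 1 was left out and at -0.25 when replicate 3 was. Pdgfrb was at 0.04 (SE 0.16). The 95% intervals ran from -0.46 to 0.16 for Pdgfra and from -0.31 to 0.40 for Pdgfrb.

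All 4 contractile and filament genes were higher (beside 51.1% of all tested genes), by 0.06 to 0.60 with a median of 0.15. Of these, 0 had an unadjusted p under 0.05. The median was 0.04 without wild type replicate 1. Acta2, the smooth muscle actin of activated stellate cells, read 6.77, 7.19, 6.37 and 5.71 in wild type and 7.63, 6.03, 6.95 and 7.84 in knock-in. The arrays spread over more than 2 log2 units within the data set and the groups overlapped widely. Its difference was 0.60 (SE 0.43, limma adjusted p = 0.647, interval -0.37 to 1.57), 0.33 without wild type replicate 4 and 0.96 without knock-in replicate 2. Vim, vimentin, read 8.41, 8.79, 8.48 and 8.66 in wild type and 8.30, 8.76, 8.88 and 8.89 in knock-in (change 0.12, SE 0.15, limma adjusted p = 0.820). The difference ran from 0.06 (knock-in replicate 4 left out) to 0.26 (knock-in replicate 1 left out). Its second probe set read 5.51 ± 0.38 and 6.10 ± 0.28. Tagln, a smooth muscle actin-binding protein, and Des, desmin, were at 0.06 (SE 0.18) and 0.17 (SE 0.24), with arrays at 4.98 to 5.90 and 5.26 to 6.15 for Des. Tagln turned to -0.04 when wild type replicate 3 was left out and to -0.03 when knock-in replicate 4 was, and Des to -0.0018 when wild type replicate 1 was.

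**Figure D3:**
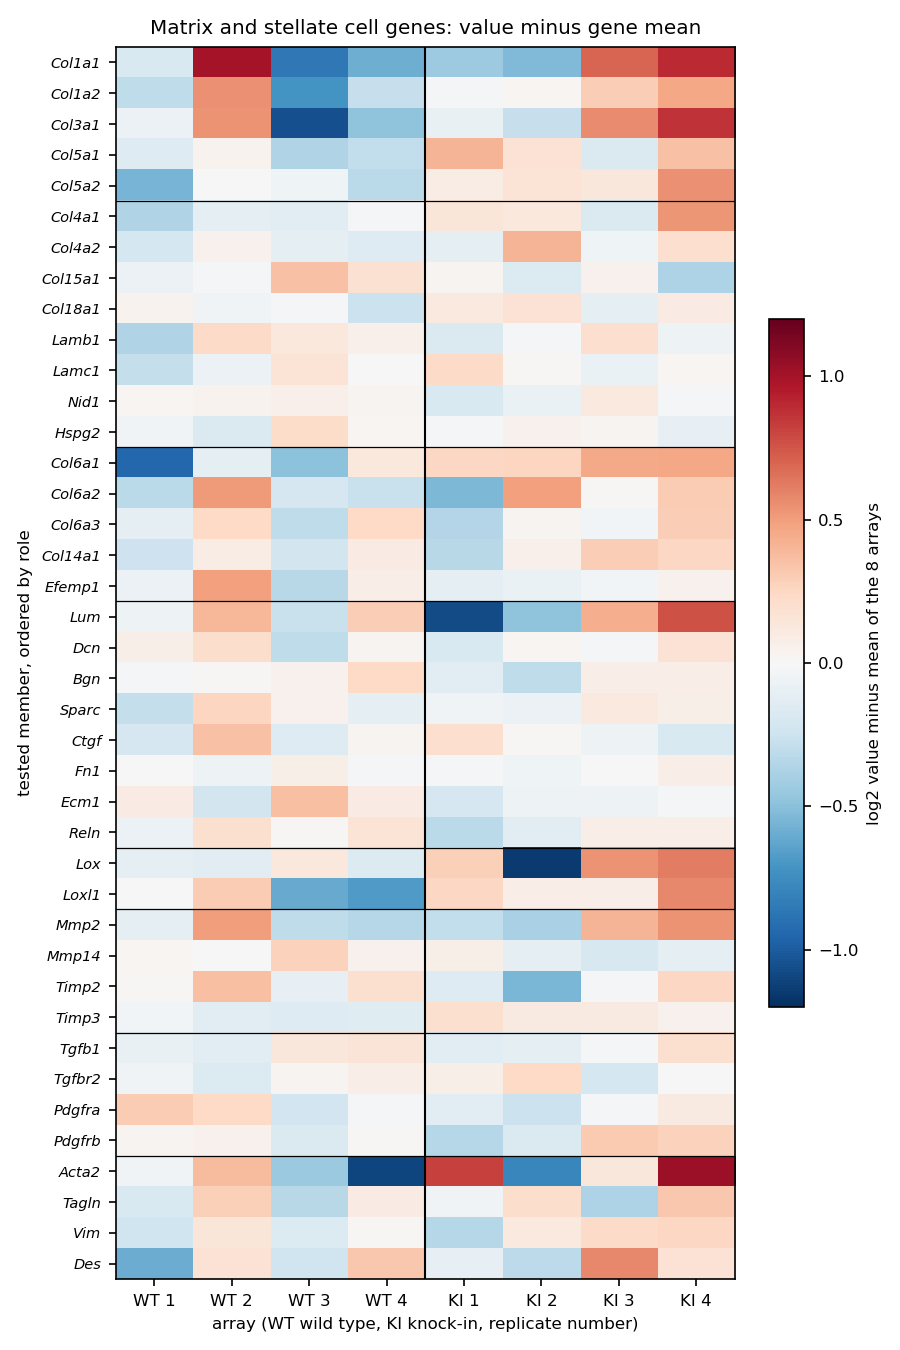
Value of each of the 40 tested members on each array minus that gene's mean over the 8 arrays (log2; red above, blue below), with wild type left and knock-in right of the vertical line and horizontal lines between roles. The deepest colours are in Col1a1, Col3a1, Col6a1, Lum, Lox and Acta2, and knock-in replicate 4 is above the gene mean in 33 of 40 members.

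Some arrays stood high or low over many members, in both groups. Knock-in replicate 4 was the highest of the 8 arrays in 14 of 40 members (35.0%, against 12.7% of all tested genes) and above the gene mean in 33. Wild type replicate 2 was the highest in 10 (25.0%, against 13.5%) and above the gene mean in 27. Wild type replicate 1 was the lowest array in 9 members (22.5%, against 10.6% of all tested genes) and above the gene mean in 9. Over members, the median deviation from the gene mean was -0.08, 0.12, -0.16 and 0.02 in wild type replicates 1 to 4 and -0.09, -0.04, 0.06 and 0.20 in knock-in replicates 1 to 4, and the same median over all tested genes stayed between -0.01 and 0.01. The groups overlapped, with wild type replicate 2 above 3 of the 4 knock-in arrays.

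Wild type replicate 2 and knock-in replicates 3 and 4, singled out after the values were seen, were the 3 highest arrays in 8 members: Col1a1, Col1a2, Col3a1, Lum, Sparc, Mmp2, Pdgfrb and Vim. That is 20.0% of the tested members, against 1.94% of all tested genes, as a description of these libraries. In the further pathway lists described below, 7 of 82 tested genes (8.54%) had the same 3 highest arrays, among them Lama2, Lama4, Itga8 and Ddr2. The gap to the next array was 0.88 for Col1a1, 0.61 for Col3a1 and 0.53 for Mmp2, and 0.01 to 0.27 for the other 5. Over the fibrillar collagens the mean deviation was 0.43 in wild type replicate 2, 0.30 in knock-in replicate 3 and 0.63 in knock-in replicate 4, and -0.61 in wild type replicate 3. Vascular smooth muscle markers (7 of 9 tested) had mean deviations of 0.31, 0.02 and 0.48 in the first 3 of those arrays and -0.17 in the last. Their lowest was -0.31, in wild type replicate 4, where the fibrillar collagens were at -0.39. Portal fibroblast markers (6 of 10 tested) had 0.16, 0.01, 0.13 and -0.0038 in the same 4 arrays. Mesothelial markers (6 of 6 tested) had 0.54, 0.27, 0.09 and -0.41, and quiescent stellate markers 0.02, -0.07, 0.07 and -0.12. The part of these cells in the collagen values was not tested.

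**Figure D4:**
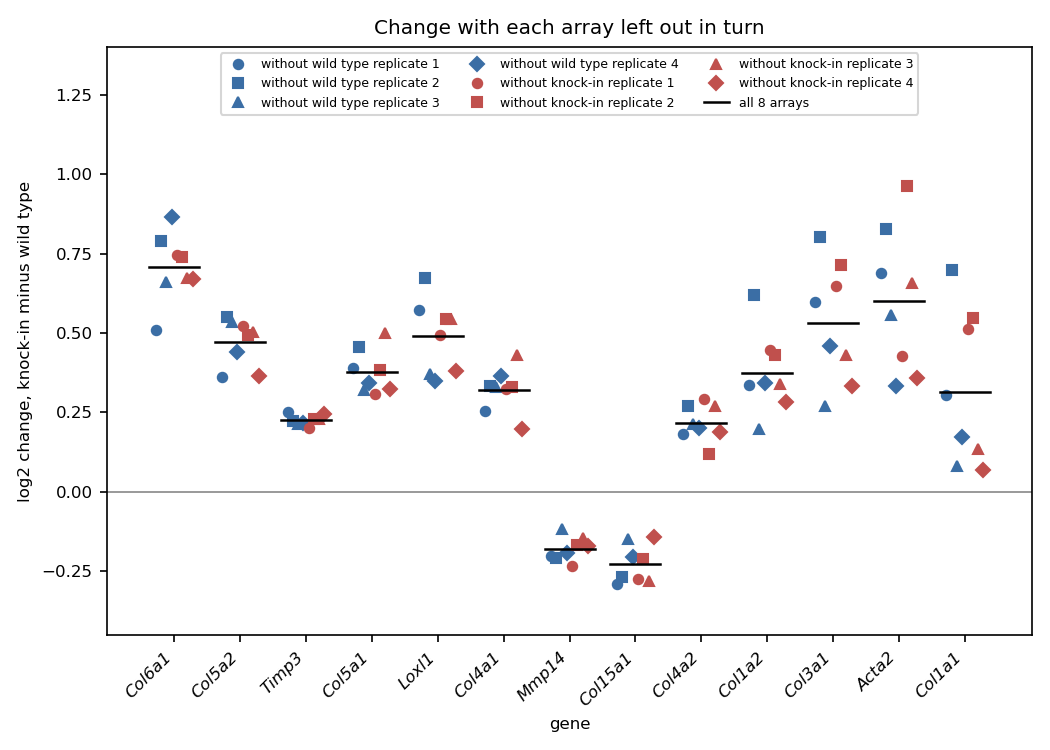
Log2 change (knock-in minus wild type) of the 12 members with the smallest unadjusted p and of Col1a1, with all 8 arrays (black line) and with each array left out in turn (blue: a wild type array left out; red: a knock-in array). Timp3 stays within 0.20 to 0.25, while Col1a1 runs from 0.07 without knock-in replicate 4 to 0.70 without wild type replicate 2.

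In all, 17 of 40 members (42.5%) turned direction on leaving out at least 1 array, against 37.9% of all tested genes. Of the 9 members with a change of at least 0.3 in size, 0 turned and 5 moved by over 1.5 times (55.6%, against 41.6% of all genes of that size turning or moving so). With each array left out, the median change over members was 0.01 (without knock-in replicate 3) to 0.11 (without wild type replicate 2). The fibrillar collagen median ran from 0.27 (wild type replicate 3 left out) to 0.62 (replicate 2 left out). Col6a1, Col5a2 and Timp3 kept an unadjusted p under 0.05 in each of the 8 fits, and Col5a1 in 3. These fits reuse the arrays by which the members were picked, so this is a description and not separate support. The share of all tested genes that kept such a p in all 8 fits is not given here. Col1a2, Col3a1 and Loxl1 also fell under 0.05 without wild type replicate 2, and Loxl1 without wild type replicate 1. Acta2 and Lox fell under it without knock-in replicate 2, and Col4a1 without knock-in replicate 3. Lox, as given above, passed the filter mainly through the knock-in. Mmp14 (lower) fell under 0.05 without knock-in replicate 1.

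Other genes of the pathway gave a share near that of the members at an unadjusted p under 0.05, but in both directions. The 4 members at that p were all higher. Over 5 further lists, 82 of 92 genes were tested, 37 were higher and 45 lower, 0 passed the threshold, and 5 higher and 6 lower had an unadjusted p under 0.05 (13.4%, against 11.3%). The median change was -0.02. Among other matrix proteins (26 of 29 tested, 16 higher), Postn, periostin, was at 0.72 (SE 0.21, limma adjusted p = 0.260) and the laminin chain Lama2 at 0.52 (SE 0.17, limma adjusted p = 0.298). Postn read 8.33, 8.19, 7.42 and 7.74 in wild type and 8.56, 9.0, 8.46 and 8.54 in knock-in, so its groups lay apart. In collagen processing (13 of 15 tested, 5 higher and 8 lower), P4ha1, a subunit of the prolyl hydroxylase that stabilises collagen, was at -0.51 (SE 0.11, limma adjusted p = 0.142), the opposite sign to the fibrillar collagens. P4ha1 read 7.49, 7.33, 7.37 and 7.67 in wild type and 7.09, 6.88, 6.82 and 7.03 in knock-in. The isomerase Ppib was at 0.25 (SE 0.10).

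Of the genes of transforming growth factor beta and platelet-derived growth factor signalling, all 18 were tested, 4 higher and 14 lower, with a median of -0.13. Ccn1 (Cyr61), an immediate matricellular target of YAP and serum response factor, had the largest change of these lists. It read 7.44, 7.81, 8.07 and 7.62 in wild type and 6.79, 6.39, 6.73 and 6.99 in knock-in, with no overlap. The change was -1.01 (SE 0.16, limma adjusted p = 0.0722), and it was -1.11 to -0.90 with each array left out. Its relative Ctgf, as given above, was at -0.01, while a second, dim probe set of Ctgf had a higher mean in the knock-in. Inhba, an activin subunit, was at -0.54 (SE 0.12, limma adjusted p = 0.164). In matrix degradation (10 of 15 tested, 7 higher), the metalloproteinase Mmp19 was at 0.33 (SE 0.08, limma adjusted p = 0.202) and Adamts1 at -0.34 (SE 0.10, limma adjusted p = 0.268). Of 15 matrix receptors, 5 were higher and 10 lower with 0 at an unadjusted p under 0.05, and the smallest p belonged to the integrin chain Itgb8, at -0.46 (SE 0.22).

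Of the markers of cells that make these proteins, 0 passed the threshold. The quiescent stellate list had 5 members higher and 8 lower, 0 at an unadjusted p under 0.05 and a median of -0.05, and its list mean was 7.10 to 7.32 on wild type arrays against 7.09 to 7.30 on knock-in arrays. Lrat, which makes retinyl ester in stellate cells, was at -0.03 (SE 0.13). The smallest p in that list belonged to the transcription factors Hand2, at -0.24 (SE 0.11, limma adjusted p = 0.465), and Lhx2, at -0.19 (SE 0.10). Portal fibroblast markers (6 of 10 tested) had list means of 5.29 to 5.59 and 5.34 to 5.56, with 4 higher, 2 lower and a median of 0.04. Of the vascular smooth muscle markers, 5 were higher and 2 lower, with 1 at an unadjusted p under 0.05 and a median of 0.25, and the list mean was 4.94 to 5.56 on wild type arrays against 5.09 to 5.72 on knock-in arrays. The part of smooth muscle in the values of Acta2 and the other contractile genes was not tested.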

How the data were processed

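The deposited table holds log2 expression values for 41345 probe sets on 8 arrays, normalized by the authors; RMA and limma are named in the submitters' processing notes, with no version. Labelled cDNA came from 400 ng of RNA, per the labels' protocols. RMA equalises the arrays' distributions and compresses changes of dim genes. The array annotation's version and genome build: not given in the sources used here. Of the probe sets, 23521 have exactly 1 gene symbol in the platform annotation, and 23328 of these matched a RefSeq gene table (GRCm38.p6) by Entrez identifier. A gene was tested where at least 4 of 8 arrays lay above the 40th percentile. The 2 genotypes were fitted with lmFit and eBayes (limma 3.58.1, R 4.3.3; two-sided, Benjamini-Hochberg over 13449 genes, threshold 0.05), a script first tested on simulated data. Precision is limited by how few arrays there are.

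Members, lists and tests were chosen with earlier results of these data known. Named in full were the 12 members with the smallest p and the brightest of each of 8 roles; Col1a1, Lum and Mmp2 were added after their values were seen. Of the further lists, up to 2 genes with the smallest p were named. Alternatives were 8 other settings and each array left out. Same-numbered arrays correlated at -0.11 to 0.10 in their deviations from the group mean. That cannot show whether the numbers pair samples, and the main fit did not pair them.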

Additional observations from a re-analysis of the deposited data

Results flagged for a closer look

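Of 98 groups of 4 arrays examined (40 members, their median and 8 role means, in each genotype), 4 held an array far from the other 3, and chance gives about 1 in 20. For Col5a2, knock-in replicate 4 was high at 4.40, with the others at 3.94 to 4.02. For Col6a2, wild type replicate 2 was high at 5.68, with the others at 4.84 to 4.96. For Lox, wild type replicate 3 was high at 3.54, the only wild type array above the dim limit, with the others at 3.25 to 3.29. Over the proteases and their inhibitors, the mean deviation of wild type replicate 2 was 0.19, with the others at -0.07 to -0.03.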

How the results depend on the processing

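Among members, 0 passed the threshold under each of the 8 other settings and each array left out, and the lowest adjusted p of the 17 members named in full was 0.161. The count of members at unadjusted p under 0.05 was 3 to 5 under the other settings and 3 to 8 with an array left out. The shares of all tested genes were 8.68% to 14.1% and 8.95% to 11.5%. The number of higher members was 18 to 26 (of 32 to 42 tested) and 21 to 29, and the median change 0.04 to 0.08 and 0.01 to 0.11. The count over all genes was 9. It was 2 with no filter, 2 with the replicate block, 24 with the mean of probe sets, 25 with array weights, 32 with the stricter filter, 73 with the trended and robust prior, and 1 to 12 with an array left out; the cause was not tested. With the replicate number as a block, 5 members had an unadjusted p under 0.05, and wild type replicate 1 alone matched its own number best. Fn1 reversed to -0.0051 with arrays centred on the median and to -0.0012 after a further quantile normalization, and ran from -0.0224 to 0.0257 with an array left out. Efemp1 ran from -0.210 to 0.0667. Taking the mean of probe sets gave 0.36 for Col6a1, 0.08 for Col5a1, 0.06 for Col1a2 and 0.36 for Vim, against 0.71, 0.38, 0.37 and 0.12, by averaging in a second probe set.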

Other observations

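Markers of other cell types held some of the smaller p-values around the matrix genes, and 0 passed the threshold. Vwf, von Willebrand factor of vascular endothelium, read 5.39, 5.60, 5.48 and 5.16 in wild type and 6.14, 5.98, 5.73 and 6.26 in knock-in (change 0.62, SE 0.14, limma adjusted p = 0.162). Cd34, found on portal fibroblasts and vascular endothelium, read 5.12, 5.50, 5.41 and 5.14 in wild type and 5.86, 5.91, 5.60 and 5.82 in knock-in (change 0.50, SE 0.12, limma adjusted p = 0.178). Lyve1, a receptor of sinusoidal endothelium, was at 0.73 (SE 0.23, limma adjusted p = 0.295). For Vwf and Cd34 the groups lay apart. The vascular endothelial list (9 of 9 tested) had 5 members higher and 4 lower with a median of 0.00022, and the sinusoidal list (12 of 12) 4 higher and 8 lower with a median of -0.05. The mesothelial list (6 of 6) had 2 higher and 4 lower with a median of -0.31. Krt23, from the mesothelial list, was at 0.84 (SE 0.16, limma adjusted p = 0.111) while Msln, the defining mesothelial gene, was at -0.49 (SE 0.22). The B and plasma cell list (5 of 6) had 3 higher and 2 lower with a median of 0.02 and a lowest change of -0.38. Its highest, Jchain, of plasma cells, was at 1.04 (SE 0.25, limma adjusted p = 0.184).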
